A study of Saccharomyces cerevisiae with 4 samples.

Results

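The genes described here encode enzymes that attach and build sugar chains on proteins in the yeast secretory pathway. They are 42 genes chosen by name, matched to the probes of the value table through the platform annotation or a current name of an older symbol. All 42 had 1 probe each and were tested, out of 4072 named genes in all. ALG3 and ALG12 were found under their older symbols RHK1 and ECM39. The strains were Saccharomyces cerevisiae carrying pAG305GPD-AAE13, and a control carrying pAG305GPD-ccdB, the same vector with the ccdB cassette in place of AAE13. AAE13 is a plant malonyl-CoA synthetase. Malonate, the substrate of that enzyme, was given to both strains at 0.2 mM once the cultures, kept at 30 °C in drop-out medium, had an optical density of 0.1, and cells were taken in mid-log phase. Each of 4 two-colour arrays carried RNA of 1 AAE13 culture and 1 ccdB culture, described in the labels as biological replicates, with the AAE13 sample in Cy5 on the odd-numbered arrays (1 and 3) and in Cy3 on the even-numbered ones (2 and 4). Expression of AAE13 comes from a constitutive promoter on the vector and its transcript was not analysed here, so the labels of the strains could not be checked on it. The labels do not say how many independent transformants the cultures came from.

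N-glycosylation in yeast starts with a sugar tree that is built on the lipid dolichol, first on the cytosolic face of the endoplasmic reticulum (ER) and then in its lumen. The oligosaccharyltransferase complex moves the finished tree to asparagine residues of new proteins. O-mannosylation is a separate ER route in which Pmt proteins place a mannose on serine or threonine. In the Golgi, mannosyltransferases lengthen both kinds of chain, and the long N-linked mannans become the outer layer of the cell wall.

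All values are log2 ratios on arrays centred on their medians, read as AAE13 over ccdB, so that 0 is the typical probe of an array. That direction is likely but not settled: it rests on the title of the series, which names the AAE13 strain before the control, and the deposited table does not state it. Over all probes, arrays of opposite dye orientation correlated at 0.576 on average, and on that basis all 4 were taken to run the same way. Arrays of the same orientation correlated at 0.693. The correlation cannot settle this alone, since a signal that followed the dye would also be shared by all arrays. Read as Cy5 over Cy3 and never turned, 0 genes passed the test used below. That reading reverses the sign of the even-numbered arrays, which pulls apart arrays that correlate above 0. The lack of calls thus largely follows from the correlation and is no separate check. If the ratios ran the other way, every higher and lower below would change places. The log base was also not stated, and folds assume base 2; the highest deposited value, 16.6 on array 1, lies beyond the 16 log2 units of a 16-bit scanner. No spot intensities were analysed, so the signal over background of each probe is unknown, and precision is limited by the number of arrays, which is 4.

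As a group, the glycosylation genes stayed close to the typical gene. Of the 42 genes, 9 passed limma's moderated test at a Benjamini-Hochberg adjusted p under 0.05 over all genes, 6 higher and 3 lower in the AAE13 strain. That is 21.4% of the members, against 24.8% of all 4072 genes tested. By direction, 14.3% of the members were higher, against 13.0% of all genes, and 7.14% were lower, against 11.8% of all genes. The share called is thus near the background, and the genes are described as individuals. Those that rose were ALG11, PMT5, MNS1, OCH1, MNN4 and KTR4, and those that fell were ALG3, ALG5 and KRE2. All 9 had the same sign on every array, as did 15 of the 42 members (35.7%), against 46.4% of all genes. No member reached a 2-fold difference, while 13.3% of all genes did. The median size of the mean ratio, sign ignored, was 0.17 over the members and 0.38 over all genes, and the median SD over arrays was 0.27 for the members and 0.39 for all genes. For 35 of the 42 members the 95% interval of the ratio lay within 1 log2 unit of 0, as it did for 61.6% of all genes.

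**Figure D1:**
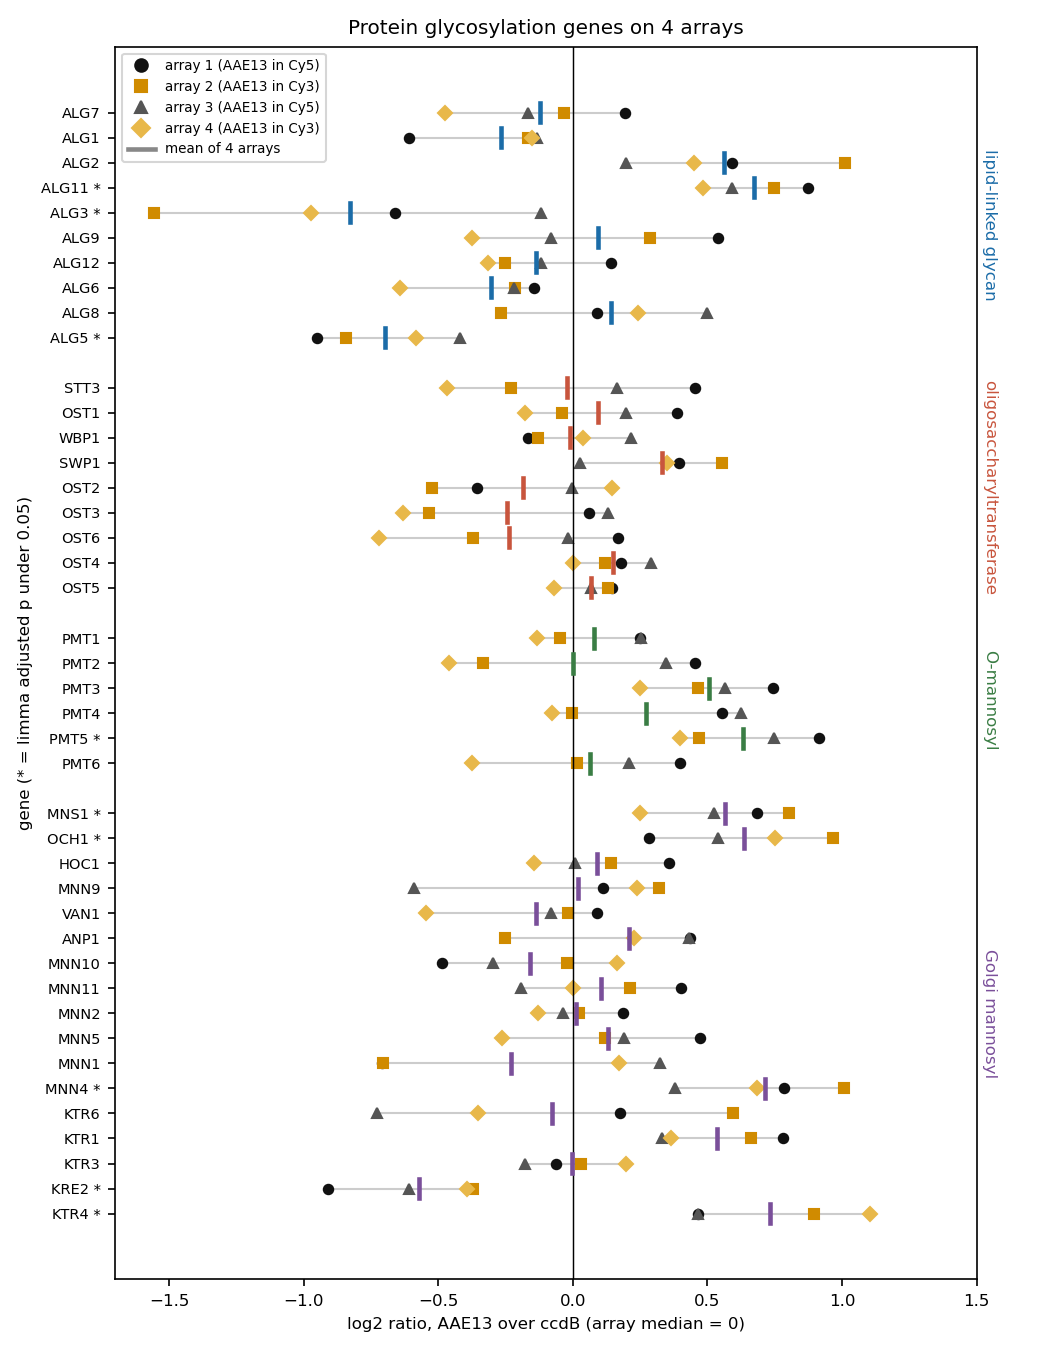
Log2 ratios (AAE13 over ccdB, horizontal axis) of the 42 glycosylation genes on each of 4 arrays, ordered by step; symbols are arrays, coloured ticks are means and asterisks mark limma adjusted p under 0.05. The lowest mean is ALG3 at -0.83 and the highest is KTR4 at 0.73.

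The 9 calls rested on small differences and on all 4 arrays being used. Without array 1, array 2 or array 4, 0 of the 42 members passed limma at an adjusted p under 0.05. Of the 4072 genes tested, 621, 789 and 427 still did. Without array 3, 5 of the 42 members passed, namely ALG11, ALG3, ALG5, MNN4 and KTR4, beside 1045 of the 4072 genes. The adjusted p over these fits ran from 0.0137 for ALG3 without array 3 to 0.194 for KRE2 without array 1. The means of all 9 genes kept their signs in each of these fits, which had to follow from each gene having the same sign on every array.

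**Figure D2:**
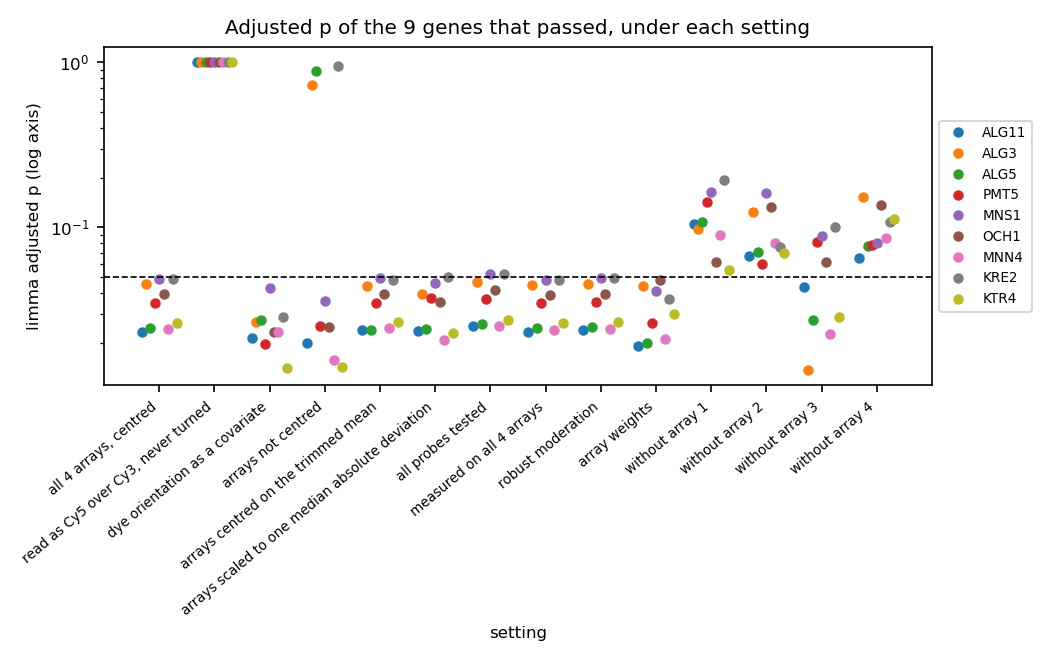
Limma adjusted p (vertical log axis) of the 9 glycosylation genes that passed, under all 4 arrays and 13 alternative settings, with a dashed line at 0.05. Without array 1, 2 or 4 all 9 points lie above the line, and without array 3, 5 genes lie below it.

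In the making of the lipid-linked glycan, 1 of 10 enzymes rose, 2 fell and 7 did not pass. That is 10% called higher and 20% lower, against 13.0% and 11.8% of all genes. The median of the 10 mean ratios was -0.13, against -0.02 over all genes. ALG11, which adds the last mannoses on the cytosolic face, had ratios of 0.87, 0.75, 0.59 and 0.48 on arrays 1 to 4. Its mean was 0.67 ± 0.17 (SD, n = 4; 1.59-fold; limma adjusted p = 0.0234), with a narrow spread and every array above 0. ALG2, which adds the mannoses just before, had 0.59, 1.01, 0.20 and 0.45, also above 0 on each array, but its mean of 0.56 ± 0.34 (SD, n = 4; limma adjusted p = 0.0637) was not called. The enzymes that begin the tree gave smaller values. ALG7, which places the first sugar phosphate on dolichol and is the target of tunicamycin, had a mean of -0.12 ± 0.28, and ALG1, which adds the first mannose, had -0.27 ± 0.23 (SD, n = 4).

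Past the flip into the ER lumen, ALG3 adds the first of the luminal mannoses. Its ratios were -0.66, -1.56, -0.12 and -0.97 on arrays 1 to 4, with a mean of -0.83 ± 0.60 (SD, n = 4; limma adjusted p = 0.0453). It was the lowest mean of the 42 genes and also the widest spread, and both arrays with AAE13 in Cy3 lay below both with AAE13 in Cy5. Each orientation holds 2 of the 4 arrays, so dye orientation as a covariate leaves the mean of a gene measured on all 4 unchanged. With that covariate ALG3 had a limma adjusted p of 0.0266, and 1276 of all genes passed instead of 1011. The orientation term itself had an unadjusted p of 0.0509 and an adjusted p of 0.281 in limma. ALG9 and ALG12, which add the remaining mannoses, had means of 0.09 and -0.14 and did not pass. Glucose is added next by ALG6 and ALG8, whose means were -0.30 and 0.14, neither past the threshold. ALG5, which makes the dolichol-linked glucose that they use, had ratios of -0.95, -0.84, -0.42 and -0.58. It was below 0 on every array, at a mean of -0.70 ± 0.24 (SD, n = 4; 1.62-fold lower; limma adjusted p = 0.0246). Along this route, then, the genes that passed differed in sign from one step to another.

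With the arrays not centred, the median of all genes was 0.58 and that of every step moved up with it. This shift of the mean is the same for every gene, so it works against falls and for rises. It differs between arrays, whose deposited medians were 0.431, 0.765, -0.174 and 1.41. Leaving out the centring therefore also changes the spread over arrays, and with it the adjusted p. On that scale ALG3, ALG5 and KRE2 were at -0.22, -0.09 and 0.04 and were not called (limma adjusted p = 0.734, 0.891 and 0.956). The 6 genes that rose were called, and ALG2, PMT3 and KTR1 were called higher as well (limma adjusted p = 0.0362, 0.0482 and 0.0419).

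None of the 9 oligosaccharyltransferase subunits passed limma's test, which 24.8% of all genes did. None had an unadjusted p under 0.05, which 39.8% of all genes had. The means ran from -0.24 for OST3 to 0.33 for SWP1, and the 95% intervals of all 9 lay within 1 log2 unit of 0. STT3, the catalytic subunit, had 0.45, -0.23, 0.16 and -0.47 on arrays 1 to 4, which average -0.02 with values on both sides of 0. OST1, WBP1 and OST2, further essential subunits, had means of 0.09, -0.01 and -0.18. SWP1 was above 0 on each array and did not pass (mean 0.33 ± 0.22, SD, n = 4; limma adjusted p = 0.185). OST3 and OST6 are alternative subunits with a thioredoxin-like fold, only one of which sits in a given complex. OST3 had 0.06, -0.53, 0.13 and -0.63 and OST6 had 0.17, -0.37, -0.02 and -0.72, so the alternative subunits had nearly equal means of -0.24 each. The small subunits OST4 and OST5 had the narrowest spreads in the complex, with means of 0.15 ± 0.12 and 0.07 ± 0.10 (SD, n = 4).

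Of the 6 protein O-mannosyltransferases, PMT5 rose and 5 did not pass, and all 6 means were above 0. That is 16.7% called higher and 0% lower, against 13.0% and 11.8% of all genes. PMT5 had ratios of 0.91, 0.47, 0.75 and 0.40 on arrays 1 to 4 and a mean of 0.63 ± 0.24 (SD, n = 4; 1.55-fold; limma adjusted p = 0.0348). PMT3, which can pair with Pmt5, had 0.74, 0.47, 0.57 and 0.25 and a mean of 0.51 ± 0.21 (SD, n = 4). It was above 0 on every array and did not pass (limma adjusted p = 0.0622), though it did with dye orientation as a covariate (0.0359). The main pair, PMT1 and PMT2, gave means of 0.08 ± 0.20 and 0.00081 ± 0.47 (SD, n = 4). PMT2 was at 0.45 and 0.34 on arrays 1 and 3, and at -0.33 and -0.46 on arrays 2 and 4, so its mean of almost 0 hides opposite signs by dye orientation. PMT4, which acts alone and on membrane proteins, had a mean of 0.27 ± 0.37, and the less studied PMT6 had 0.06 ± 0.33 (SD, n = 4). PMT1 and PMT5 are next to each other in the gene order of the reference annotation, on chromosome IV, and their ratios differed on each array, PMT5 being the higher.

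All 6 PMT genes had both arrays with AAE13 in Cy5 above both with AAE13 in Cy3. Over all genes this order held for 22.4%, and the opposite order for 29.6%. Among the oligosaccharyltransferase subunits 5 of 9 had it (STT3, OST1, OST3, OST6 and OST4) and 0 had the opposite. In the lipid-linked glycan step it was seen for 2 of 10 genes. In the Golgi step 2 of 17 genes had it, and 6 had the opposite order (OCH1, MNN9, MNN10, KTR3, KRE2 and KTR4), which is 35.3%, near the share of all genes. The median difference, Cy5 arrays minus Cy3 arrays, was 0.44 for the PMT genes, 0.18 for the oligosaccharyltransferase, 0.26 for the lipid-linked glycan step and -0.004 for the Golgi step, against -0.03 over all genes. In limma with dye orientation as a covariate, the orientation term itself was called at an adjusted p under 0.05 for 0 genes (721 of all genes and 4 members at an unadjusted p under 0.05).

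**Figure D3:**
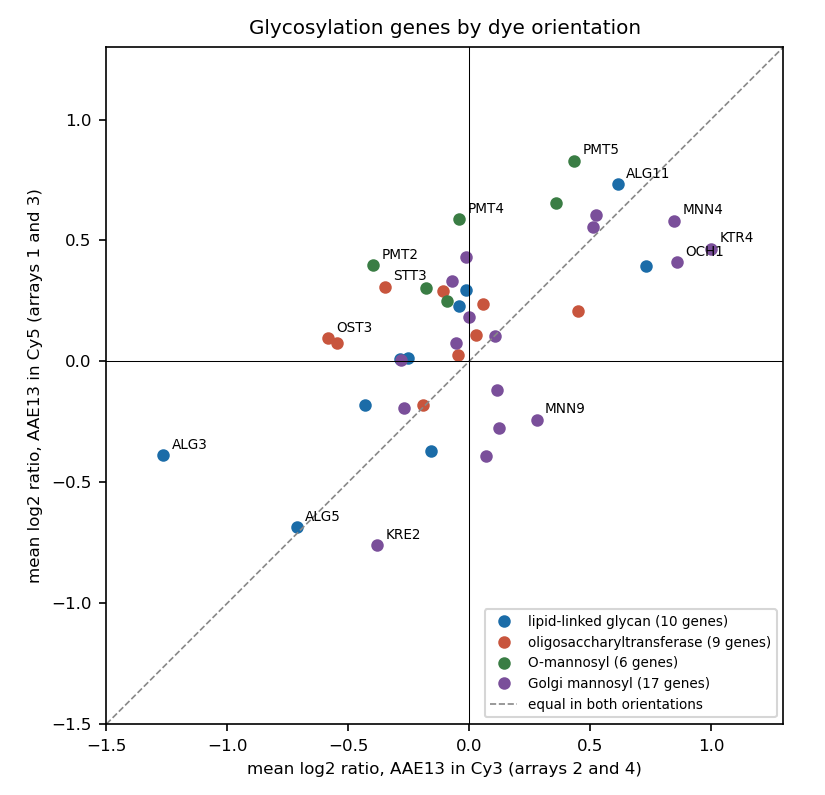
Mean log2 ratio (AAE13 over ccdB) of each glycosylation gene on arrays 1 and 3 with AAE13 in Cy5 (vertical axis) against arrays 2 and 4 with AAE13 in Cy3 (horizontal axis), coloured by step, with a dashed line of equality. All 6 O-mannosyl genes lie above the line, and KTR4, OCH1 and MNN4 lie below it.

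In the Golgi mannosyl step, 4 of 17 genes rose, 1 fell and 12 did not pass, a group that here includes the ER trimming enzyme MNS1. That is 23.5% called higher and 5.88% lower, against 13.0% and 11.8% of all genes. MNS1, a mannosidase that removes 1 mannose from the folded glycoprotein's glycan before export, had ratios of 0.68, 0.80, 0.52 and 0.25 on arrays 1 to 4. Every array was above 0, and the mean of 0.57 ± 0.24 (SD, n = 4) passed narrowly (limma adjusted p = 0.0486), but not when all probes of the table were tested together (0.052). OCH1 starts the outer chain of the N-glycan in the early Golgi. It had 0.28, 0.97, 0.54 and 0.75, above 0 on each array, and a mean of 0.64 ± 0.29 (SD, n = 4; 1.55-fold; limma adjusted p = 0.0392). HOC1, a homologue of OCH1, had a mean of 0.09 ± 0.21 (SD, n = 4) and did not pass.

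The polymerases that extend the backbone after OCH1 were not called. MNN9 is shared by both complexes and had 0.11, 0.32, -0.59 and 0.24 on arrays 1 to 4, so that array 3 alone was below 0. Its partner VAN1 in the first complex had a mean of -0.14, and ANP1, MNN10, MNN11 and HOC1 of the second complex had means of 0.21, -0.16, 0.11 and 0.09. The branching enzymes MNN2 and MNN5 had 0.01 ± 0.13 and 0.13 ± 0.30 (SD, n = 4). Thus OCH1 passed, while all 8 of these genes that act on or branch its product did not. Of all genes tested, 75.2% did not pass either. A difference between OCH1 and these genes was not tested.

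MNN1, which caps chains with terminal mannose, had -0.71, -0.71, 0.32 and 0.17 on arrays 1 to 4. It was below 0 on arrays 1 and 2 and above 0 on arrays 3 and 4, which have both dye orientations in each pair. KTR6, the transferase that adds mannosylphosphate, had 0.18, 0.60, -0.73 and -0.35, the reverse of MNN1 by array. Neither passed. MNN4, which is needed for the same mannosylphosphate transfer, had 0.78, 1.01, 0.38 and 0.69 and a mean of 0.71 ± 0.26 (SD, n = 4; 1.64-fold; limma adjusted p = 0.0241). So MNN4 rose, while KTR6, at a mean of -0.08 ± 0.58 (SD, n = 4), did not pass, and the difference between them was not tested.

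The KTR and KRE2 family, which lengthens O-linked and N-linked chains, was split in sign. KTR4, a member whose own substrate is little known, had 0.47, 0.90, 0.47 and 1.10, the highest mean of the 42 genes at 0.73 ± 0.32 (SD, n = 4; 1.66-fold; limma adjusted p = 0.0265). KRE2 had -0.91, -0.37, -0.61 and -0.39 and a mean of -0.57 ± 0.25 (SD, n = 4), which passed narrowly (limma adjusted p = 0.0486), but neither when all probes were tested (0.0519) nor with the arrays scaled (0.050004). KRE2 was below 0 on every array and KTR4 above 0 on every array, with no overlap between them. KTR1 was above 0 on each array, from 0.33 to 0.78, and missed the threshold (mean 0.53 ± 0.22, SD, n = 4; limma adjusted p = 0.0545). KTR3 had a mean near 0, with an SD of 0.16 over the 4 arrays. Family members share sequence, and how far their probes hybridise with each other's transcripts was not tested.

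The steps were compared through the median of their genes on each array. For the lipid-linked glycan step these medians were 0.12, -0.19, -0.12 and -0.35 on arrays 1 to 4. For the oligosaccharyltransferase they were 0.17, -0.13, 0.13 and -0.07. The O-mannosyl step had 0.50, 0.01, 0.46 and -0.11. The Golgi step, which here includes the ER enzyme MNS1, had 0.28, 0.14, 0.01 and 0.17. It was the only step above 0 on all 4 arrays, though only just on array 3. The 8 other Golgi mannosyltransferases, a further list described below, had medians of -0.035, -0.42, -0.13 and -0.33 on arrays 1 to 4. The values above 0 thus hold for the genes listed in the Golgi step and not for Golgi mannosyltransferases in general. The lipid-linked glycan step had the lowest median of the 4 steps on each array. The O-mannosyl median exceeded it by 0.35 ± 0.17, the Golgi median by 0.29 ± 0.18 and the oligosaccharyltransferase median by 0.16 ± 0.12 (SD, n = 4 arrays). These differences are descriptions of the genes listed, without a test, and the Golgi and oligosaccharyltransferase differences change sign if the ratios are read as Cy5 over Cy3, where the Golgi median is -0.00619, the oligosaccharyltransferase median 0.125 and the lipid-linked glycan median 0.133.

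**Figure D4:**
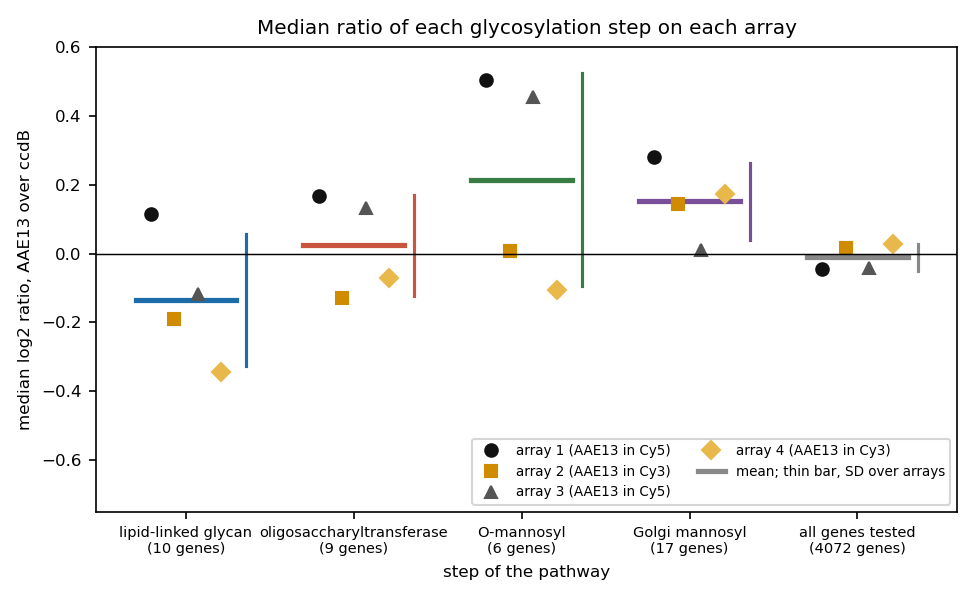
Median log2 ratio (AAE13 over ccdB, vertical axis) of the genes of each step on each of 4 arrays, with the mean over arrays as a bar and its SD as a thin line, beside all genes tested. The lipid-linked glycan median is the lowest of the 4 steps on each array, and the O-mannosyl medians are 0.50 and 0.46 with AAE13 in Cy5 and 0.01 and -0.11 with AAE13 in Cy3.

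Further lists cover genes around these steps, and their counts stand beside the 13.0% of all genes called higher and the 11.8% called lower. In sugar nucleotide supply and Golgi transport, 1 of 13 genes rose, 3 fell and 9 did not pass. UGP1, which makes UDP-glucose, had 1.15, 1.25, 1.67 and 1.45 on arrays 1 to 4, a mean of 1.38 ± 0.23 (SD, n = 4; 2.61-fold; limma adjusted p = 0.0019). UDP-glucose feeds glycogen, trehalose and cell wall glucan as well as the dolichol-linked glucose made by Alg5, whose own gene fell. Those that fell were SEC53, the phosphomannomutase on the way to GDP-mannose, at -0.61 ± 0.21, GDA1, the Golgi enzyme that clears spent GDP, at -0.64 ± 0.35, and PCM1, a mutase on the way to UDP-N-acetylglucosamine, at -0.90 ± 0.50 (SD, n = 4; limma adjusted p = 0.0363, 0.0459 and 0.0247).

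Of 7 further genes of dolichol and the lipid-linked glycan, SEC59, the dolichol kinase, rose at 0.65 ± 0.38 (SD, n = 4; limma adjusted p = 0.0479) and 6 did not pass. In glycan trimming and quality control, CWH41, glucosidase I, which removes the outermost glucose after transfer, fell at -0.80 ± 0.32 (SD, n = 4; limma adjusted p = 0.0198), and 5 of 6 genes did not pass. Among 8 other Golgi mannosyltransferases KTR5 rose and MNT2 and MNT4 fell. MNT4, a putative mannosyltransferase related to MNN1, had -1.14, -0.97, -1.10 and -1.46, a mean of -1.17 ± 0.21 (SD, n = 4; limma adjusted p = 0.00314), and every array was below 0. MNT2, which extends O-linked chains, had a mean of -0.82 ± 0.23 (SD, n = 4; limma adjusted p = 0.0132), and KTR5 had 0.52 ± 0.12 (SD, n = 4; 0.0485, limma).

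ER folding and unfolded protein response genes were measured for 20 genes, of which 3 rose, 0 fell by limma's adjusted p, 17 did not pass and 8 had an unadjusted p under 0.05. As shares of the list these are 15.0% called higher, against 13.0% of all genes, and 40% at the unadjusted threshold, against 39.8% of all genes. The 8 genes at the unadjusted threshold were split in sign. SEC61, FPR2, SEC63 and SCJ1 had means of -0.72, -0.52, -0.49 and -0.49, while CPR5 (0.55) and the 3 that rose lay above 0. DER1, a membrane protein of ER-associated degradation, had 1.16, 1.71, 0.66 and 1.63 on arrays 1 to 4, a mean of 1.29 ± 0.48 (SD, n = 4; 2.45-fold; limma adjusted p = 0.00575). MPD1, a relative of protein disulfide isomerase, was at 0.77 ± 0.33 and JEM1, a J-protein partner of the ER Hsp70, at 0.61 ± 0.19 (SD, n = 4; limma adjusted p = 0.0226 and 0.0346). KAR2, that Hsp70 and a standard readout of the response, was named after its values were seen. It had -0.72, -1.43, 0.21 and -0.0015 on arrays 1 to 4 and did not pass (limma adjusted p = 0.237). Its low values were on arrays 1 and 2, which have both dye orientations. KAR2 does not stand for the list, in which 11 of 20 means lay above 0 and 9 below.

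Of the 12 genes of these further lists that passed, UGP1, MNT4 and DER1 also passed in limma with any 1 array left out. The other 9 did not pass without array 4 (adjusted p from 0.0686 to 0.157, limma). Leaving out the centring moves the mean of every gene up alike and also changes the spread over arrays. On that scale none of the 6 that fell was called (adjusted p from 0.342 to 0.998, limma). MNT4, PCM1 and MNT2 were then at -0.56, -0.29 and -0.21. SEC59 and KTR5 also lost their call when all probes were tested (adjusted p = 0.0503 and 0.0525, limma), SEC59 with the arrays scaled (0.0511) and GDA1 with array weights (0.054).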

How the data were processed

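Per the labels' protocols, cDNA was primed with oligo-dT on total RNA and coupled afterwards to Alexa dyes. The authors deposited 1 value table of log ratios, taken here as log2, for 6256 probes on 4 arrays, with 4 missing values. For its normalization, software, log base and direction, nothing is stated in the sources used here. Deposited array medians were 0.431, 0.765, -0.174 and 1.41, so each array was centred on its median. The platform annotation names 1 gene for 4075 probes and none for 2181. Symbols were updated through the RefSeq gene table (R64), from which names and the order of genes were taken: 3942 were current, 125 were updated and 8 were kept. Probes of a gene were averaged, and 4072 genes had values on at least 3 arrays.

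A two-sided moderated test of each gene's mean ratio against 0 used limma 3.58.1 under R 4.3.3 (lmFit, eBayes), and p-values were adjusted by Benjamini-Hochberg over all 4072 genes. The script was tested on simulated data. The ratio of an array is itself a paired value. Every member was named, and of 5 further lists each gene that passed. From the ER folding list, KAR2 and the genes with an unadjusted limma p under 0.05 were named as well. The members and lists were chosen with earlier results of these data known. Listed genes without a named probe were not analysed here. The alternatives were the direction reading, a dye term, centring, scaling, all probes, complete genes, robust moderation, array weights, a threshold of 0.1 and leaving out each array. Figures used Python 3.11.15 and matplotlib 3.10.9.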

Additional observations from a re-analysis of the deposited data

Results flagged for a closer look

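Of 46 values with 4 arrays (42 genes and the medians of 4 steps), 2 had 1 array far from the other three by Dixon's test. Of all genes measured on 4 arrays, 2.7% were marked in the same way, and chance marks about 1 in 20 such groups. ALG1 was at -0.61 on array 1, against -0.17, -0.14 and -0.15 on arrays 2 to 4, and the gap took up 0.933 of the range. ALG6 was at -0.64 on array 4, against -0.14, -0.22 and -0.22 on arrays 1 to 3, a gap of 0.85 of the range. Neither gene passed limma's test.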

How the results depend on the processing

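Across 14 alternatives, 125 of 176 counts and medians stayed within 1.5 times or 1 SD of their value, and 51 did not; where no cause is named below, it was not tested. Leaving out an array leaves fewer samples: the members that passed then ranged from 0 to 5 (higher 0 to 3, lower 0 to 2), those of the lipid-linked glycan step from 0 to 3, of the Golgi step from 0 to 2 and those of the O-mannosyl step were 0 in each fit. All genes that passed ranged from 427 without array 4 to 1045 without array 3, with 240 to 508 higher and 187 to 537 lower. Each array's ratio is already the pair, so the main test is a paired one and no separate paired analysis was run.

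Read as Cy5 over Cy3, limma called 0 genes, higher or lower, and so 0 members in every step (154 genes and 0 members at an unadjusted p under 0.05), and the medians were 0.13 for the lipid-linked glycan step and -0.00619 for the Golgi step. Signs then turned for ALG3 (0.44), ALG5 (0.0138), OCH1 (-0.22), MNN4 (-0.13), KTR4 (-0.27), KTR5 (-0.0664), MNT4 (0.0461), CWH41 (0.14), GDA1 (0.29), PCM1 (0.44), SEC53 (0.15), MPD1 (-0.17) and DER1 (-0.38). Not centred, with all genes at a median of 0.58, 55 genes and 0 members were called lower, KRE2 turned to 0.0372 and SEC53 to 0.0018, and the step medians were 0.47, 0.63, 0.82 and 0.76 in the order of the pathway. The O-mannosyl step had 2 calls instead of 1 with a dye term, array weights, no centring or a threshold of 0.1, the added gene being PMT3. KTR1 also passed under those 4 settings, and ALG2 with no centring and at the threshold of 0.1. With all probes tested, 823 genes were called higher and 3 Golgi members passed, since MNS1 and KRE2 moved just past 0.05. At the 0.1 threshold 737 genes were called lower. KRE2 was also lost with the arrays scaled. Signal over background is unknown for every probe.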
